A study of Mus musculus with 4 samples.

Results

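This account compares a P19 clone that carries an inducible Ctcfl gene with wild-type P19 cells, both undifferentiated. P19 is a mouse embryonal carcinoma line, a tumour-derived relative of the cells of the early embryo. The comparison was defined by the sample titles: the array of the undifferentiated Ctcfl-expressing clone minus the array of undifferentiated wild-type cells, 2 of the 4 arrays in the series. All 23521 probe sets with a single gene symbol were used, of 41345 in all, and gave 22180 genes. Of these, 18310 reached log2 6 on 1 array or more and were compared.

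Both groups were P19 cells treated with vehicle (ethanol). The clone held stable integrates of pBI-EGFP-FLAG-mCtcfl and pTA-N, a Tet-Off system in which doxycycline keeps the transgene silent. It was grown with 2 µg/ml doxycycline, which was taken away 2 days before the RNA was extracted. For wild-type cells the sample characteristics give 2 µg/ml doxycycline and the growth description gives none. The other 2 arrays, of the same lines after 4 days in 10 µM retinoic acid, are used here only to show each gene in samples that did not enter the comparison. The Ctcfl-expressing line is 1 clone, so Ctcfl, the integrated vectors, clonal origin and doxycycline history cannot be told apart in any difference below. Each group had 1 array, which limits the precision of every value and allows no test.

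Ctcfl, also called BORIS, is a zinc finger protein that is normally made in male germ cells. Its DNA-binding domain closely resembles that of Ctcf, the protein that, with cohesin, holds chromatin loops and insulates genes from each other, and both bind related sites. Embryonal carcinoma cells resemble the pluripotent epiblast, where Nodal, Wnt and FGF signals balance self-renewal against entry into the primitive streak. Like other fast-growing cells they depend on amino acid supply, which the integrated stress response adjusts through the transcription factor Atf4.

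The 4 arrays had medians between 6.95 and 6.96 over all probe sets, and the pair compared here correlated at r = 0.984 across probe sets, which are not replicates. Olfactory receptor genes, a guide to background, lay low on both arrays, with medians of 4.78 for wild-type cells and 4.69 for the clone. The only error available is technical: within a gene, the differences of separate probe sets scattered with an SD of log2 0.27, from 866 genes. The SD of the difference over all 18310 genes was 0.36, and 90% of genes lay between -0.59 and 0.53. The line labels were checked on Ctcfl first. Its log2 signal was 7.86 in undifferentiated wild-type cells, 10.41 in the undifferentiated clone, 7.13 in wild-type cells in retinoic acid and 9.56 in the clone in retinoic acid. Both clone arrays were thus above both wild-type arrays, and the undifferentiated difference was log2 2.55. Its probe set may read the transgene, the chromosomal gene or both.

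Embryonal carcinoma markers were high in both lines. Of 10 such markers, 9 had a signal of at least log2 9 on each of the 2 arrays, with medians of 11.22 in wild-type cells and 11.60 in the clone. The exception was Zfp42, a marker of naive stem cells, at 6.46 and 6.20. Levels of different probe sets cannot be compared, so the markers of other cell types are given between the lines only. Their medians in wild-type cells and the clone were 7.41 and 7.55 for 7 neural markers and 7.64 and 7.50 for 8 endoderm markers. For 6 trophoblast markers they were 7.28 and 7.96, and for 7 fibroblast and blood markers 7.81 and 8.11. Such a median can fall on different genes in the 2 lines, so its shift is not a shift of the group. Sums on the linear scale moved the other way, with 1824 and 1882 for endoderm, 1938 and 1836 for trophoblast, and 1758 and 1359 for fibroblast and blood. Differences of single markers ran from -0.40 to 1.28 for trophoblast and from -0.75 to 0.40 for fibroblast and blood. Some of the markers were well above background in both lines, among them Stmn2 at 11.65 and 10.01. The keratin genes Krt8, at 9.63 and 9.29, and Krt18, at 9.41 and 9.01, were others. In bulk RNA, fewer cells of a type and less RNA per cell cannot be told apart.

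The clone exceeded wild type by 2-fold or more at 133 genes, 0.726% of those compared. At 200 genes, 1.09%, it was lower by 2-fold or more. In either direction 333 genes, or 1.82%, passed 2-fold. The higher genes had a median difference of log2 1.25 and the lower genes of -1.17. Past 3-fold the balance turned, with 31 higher genes (0.169%) and 18 lower genes (0.0983%). Genes with a given name other than small RNAs and receptors of smell made up 114 of the higher and 193 of the lower genes. All 8 microRNA genes among the 333 were higher. The share of genes past 2-fold was 3.59% at mean signals between log2 8 and 9, against 0.657% between 6 and 7 and 0.171% above 11. A wild-type signal below log2 6 underlay 17 of the 133 higher genes, and a clone signal below log2 6 underlay 9 of the 200 lower genes; those differences are not exact. Further probe sets of the same gene gave a partial check. For 12 higher genes there were 17 other probe sets, of which 17 were also higher and 10 passed 2-fold. For 10 lower genes there were 10 other probe sets, of which 5 were also lower and 0 passed 2-fold.

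**Figure D1:**
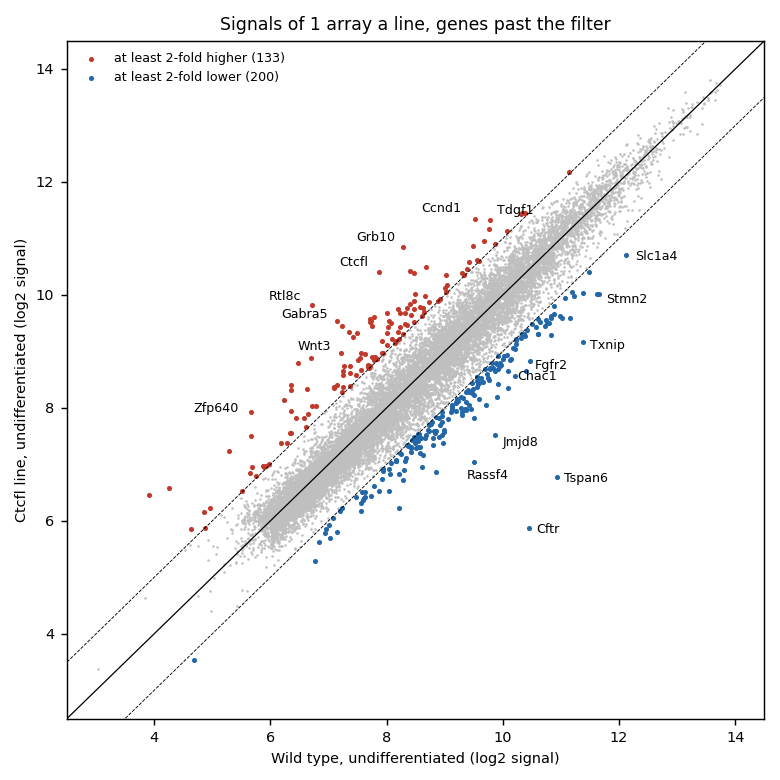
Log2 signals of 18310 genes on the undifferentiated arrays, wild type on the horizontal and Ctcfl-expressing clone on the vertical axis, 1 array each. Each point is a gene, the solid line marks equal signals and the dashed lines a 2-fold difference; 133 genes lie above and 200 below. Cftr and Tspan6 stand farthest below the line, and Rtl8c is the named gene farthest above it.

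The 15 highest named genes differed by between log2 1.84 and 3.09. Rtl8c, a gene derived from a retrotransposon, had log2 signals of 6.72 in wild-type cells and 9.81 in the clone, with 8.41 and 9.25 in the retinoic acid arrays of the same lines. The undifferentiated wild-type array was the low one of the 4, and the difference in undifferentiated cells was 8.54-fold. Rtl8c has close copies nearby, so which copy gave the signal was not settled.

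Grb10, an imprinted gene for an adaptor that dampens insulin signalling, had signals of 8.29 in wild-type cells and 10.85 in the clone, and 8.55 and 11.42 in retinoic acid. Gabra5, a subunit of the GABA-A receptor, had signals of 7.15 and 9.53, and 6.85 and 8.93 in retinoic acid. Both clone arrays stood above both wild-type arrays for each of these genes, with undifferentiated differences of 5.92-fold for Grb10 and 5.22-fold for Gabra5. The same held for Tex16, a testis-expressed gene on the X chromosome, which was 4.50-fold higher, and for Adgrg1, an adhesion G protein-coupled receptor gene, which was 4.07-fold higher.

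Zyg11a, Nefl and Cysltr1 had their highest signal on the undifferentiated clone array and differed little in retinoic acid. Zyg11a, a substrate-recognition subunit of a ubiquitin ligase, had signals of 7.23 in wild-type cells and 9.45 in the clone, against 5.84 and 6.25 in retinoic acid. The neurofilament gene Nefl had signals of 8.47 and 10.39, against 7.29 and 7.54. Cysltr1, a receptor for cysteinyl leukotrienes, had signals of 6.23 and 8.15, against 6.96 and 7.10. In undifferentiated cells these were 4.67-fold, 3.79-fold and 3.78-fold higher in the clone, while their retinoic acid differences were log2 0.41, 0.25 and 0.15. Nrp2, a coreceptor for semaphorins and VEGF, was 3.58-fold higher in undifferentiated cells because wild-type cells had 7.42 against 9.26, whereas both retinoic acid arrays were high, at 9.67 and 9.45. In Zcwpw1, Cnih2 and H2bc9 both clone arrays were above both wild-type arrays. The same order held for Rtl8c, Gbp2b, Zfp640 and Cysltr1, with smaller retinoic acid differences of log2 0.84, 0.51, 0.92 and 0.15. Zcwpw1, a histone reader of meiotic germ cells, had signals of 7.49 and 9.33, and 8.05 and 9.44 in retinoic acid. Cnih2, an auxiliary protein of AMPA receptors, had 7.71 and 9.58, and 8.70 and 9.83, and the histone gene H2bc9 had 6.35 and 8.32, and 7.07 and 8.07. Gbp2b, an interferon-inducible GTPase, was 4.17-fold higher in undifferentiated cells and differed by 0.51 in retinoic acid. For the zinc finger gene Zfp640 the wild-type signal was 5.66, so its difference of log2 2.26 is not exact.

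The 15 lowest named genes differed by between log2 1.64 and 4.58 in size. Cftr, the chloride channel of epithelia, had a signal of 10.46 in wild-type cells and 5.88 in the clone, and 9.44 and 5.74 in retinoic acid. Tspan6, an X-linked tetraspanin, had signals of 10.93 and 6.78, and 11.85 and 6.98. In both genes the 2 clone arrays were low and the 2 wild-type arrays high, and the clone signal of Cftr lay below log2 6. Jmjd8, which encodes a protein with a JmjC domain, showed the same order, with 9.87 and 7.51 in undifferentiated cells and 9.85 and 7.90 in retinoic acid.

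For several of the other lowest genes the undifferentiated wild-type array stood alone. Rassf4, of the Ras association family, had a signal of 9.50 there, against 7.04 in the undifferentiated clone and 6.77 and 6.64 in retinoic acid. Otub2, a deubiquitinase, had 10.09 there, against 8.35, 8.24 and 8.24. Aass, which starts the breakdown of lysine, had 9.90 there, against 8.20, 7.83 and 7.68. Nxf7, an X-linked gene of the mRNA export factor family, had 8.22 there, against 6.23, 6.49 and 6.36. Each of these genes had 1 high array and 3 lower ones, and their undifferentiated differences ran from -1.70 for Aass to -2.46 for Rassf4.

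In other genes the undifferentiated clone was the lowest array of the 4. Fgfr2, a receptor for fibroblast growth factors, had 10.39 in wild-type cells and 8.65 in the clone, against 10.64 and 10.73 in retinoic acid. Abcd2, a peroxisomal transporter of fatty acids, had 8.84 and 6.87, against 8.06 in the clone in retinoic acid. These were 3.34-fold and 3.93-fold lower in the undifferentiated clone, with retinoic acid differences of log2 0.09 and 0.06. Thbs2, a matrix glycoprotein, Sgcb, a sarcoglycan, Rbm24, an RNA-binding protein, and Pla2g1b, a secreted phospholipase, were between 3.12-fold and 3.20-fold lower. The undifferentiated clone gave the lowest of the 4 signals for Thbs2 and Sgcb too. For Rbm24 both clone arrays were low, at 8.82 undifferentiated and 8.87 in retinoic acid, against 10.47 and 9.60 in wild-type cells. Stmn2, a microtubule regulator of neurons, was 3.11-fold lower in undifferentiated cells and differed by -1.46 in retinoic acid.

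The 333 genes could be followed into arrays that the comparison did not use, since the retinoic acid pair shares no array with it. Of the 133 higher genes, 116 (87.2%) were above wild type in retinoic acid too, where 46.1% of all genes were, and 26 (19.5%) were at least 2-fold above it, against a background of 0.83%. Their median difference there was log2 0.51. Of the 200 lower genes, 120 (60.0%) were below wild type in retinoic acid, where 9861 of all 18310 genes were. At least 2-fold below it there were 12 (6.0%), against a background of 0.399%, and the median of the 200 was -0.14. In either direction 1.23% of all genes passed 2-fold in retinoic acid. Of the 15 highest named genes 7 passed 2-fold in the same direction in retinoic acid, and of the 15 lowest 4 did.

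**Figure D2:**
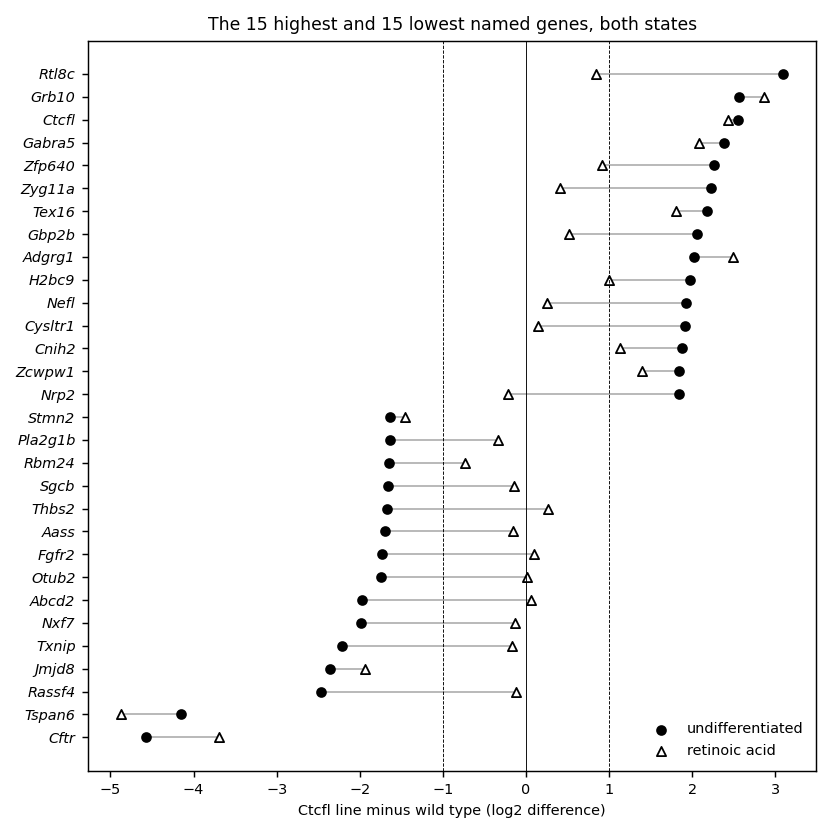
Log2 differences of the Ctcfl-expressing clone from wild type for the 15 highest and 15 lowest named genes. Filled circles are undifferentiated cells and open triangles cells in retinoic acid, each from 1 array a line; dashed lines mark 2-fold. Grb10, Ctcfl, Gabra5, Tspan6 and Cftr lie far from 0 in both states, whereas Rassf4, Txnip, Otub2 and Fgfr2 lie near 0 in retinoic acid.

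Most listed genes of the integrated stress response, its regulators and some of their targets, lay below wild type in the undifferentiated clone. The larger part of them differed by less than 2-fold. In this pathway kinases that sense stress slow translation, which favours synthesis of Atf4, and Atf4 with its partners turns on genes of amino acid supply through a site known as the C/EBP-ATF response element, or CARE. Of 26 listed genes, 22 were below wild type (all genes: 53.1%) and 0 were at least 2-fold above it. At least 2-fold below it were 6 (all genes: 1.09%). The list median was log2 -0.34, against -0.02 for all genes. In retinoic acid 18 of the same 26 genes were above wild type and the median was 0.18.

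Promoter stretches with a CARE match are shown for 9 members of the stress response and amino acid lists. Slc7a11, Chac1, Pck2, Nupr1 and Vldlr were at least 2-fold lower, Asns and Atf3 are long-known genes of the response, and Fgf21, a stress-induced hormone, and Tars, a tRNA synthetase, differed by only -0.15 and 0.0090. The choice was made with the differences known. The letters searched were TGATGNAA, and TTNCATCA on the other strand, from 250 bases before to 50 after each listed start site in RefSeq sequence of build GRCm38.p6. Capitals mark the match, and each stretch is written in the direction of the gene and ends before its start site. The stretches lie at chr3:50443629-50443703 on the minus strand for Slc7a11, chr2:119351025-119351080 on the plus strand for Chac1, chr14:55540139-55540194 on the plus strand for Pck2, chr7:126625549-126625604 on the minus strand for Nupr1, chr19:27216796-27216851 on the plus strand for Vldlr, chr6:7693210-7693256 on the minus strand for Asns, chr1:191183412-191183467 on the minus strand for Atf3, chr7:45615598-45615653 on the minus strand for Fgf21 and chr15:11399659-11399697 on the minus strand for Tars.
Slc7a11: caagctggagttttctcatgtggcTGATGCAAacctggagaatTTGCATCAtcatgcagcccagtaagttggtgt
Chac1: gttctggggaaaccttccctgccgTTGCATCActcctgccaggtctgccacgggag
Pck2: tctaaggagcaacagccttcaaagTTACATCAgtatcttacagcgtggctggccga
Nupr1: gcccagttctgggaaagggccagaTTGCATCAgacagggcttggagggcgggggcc
Vldlr: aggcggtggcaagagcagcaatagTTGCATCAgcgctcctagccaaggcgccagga
Asns: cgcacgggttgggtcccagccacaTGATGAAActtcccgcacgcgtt
Atf3: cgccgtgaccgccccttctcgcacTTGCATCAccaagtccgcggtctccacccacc
Fgf21: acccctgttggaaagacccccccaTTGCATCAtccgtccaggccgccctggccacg
Tars: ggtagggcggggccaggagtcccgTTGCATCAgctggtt

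The stretch of Slc7a11 held 2 matches and the others 1 each. Of 70 genes of the 4 stress and amino acid lists with a promoter sequence, 16 (22.9%) held a match at 1 or more start sites, against 3.14% of 14092 genes past the filter and 4.51% of all 27025 genes in the promoter table. Among members at least 1.5-fold lower in the clone, 8 of 19 (42.1%) held one, and among the other members 8 of 51 (15.7%). Of the 200 lower genes, 12 of 161 with a sequence (7.45%) held one, and of the 133 higher genes 3 of 95 (3.16%). A match is a stretch of letters and not a bound site.

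On the stress response list, Chac1 is an enzyme that degrades glutathione, and its promoter is shown above. Its signals were 10.09 in wild-type cells, 8.65 in the clone, and 7.63 and 8.02 in retinoic acid. Ddit3, the stress transcription factor CHOP, had 9.47 and 8.26, and 7.92 and 8.85 in retinoic acid. Ddit4, an inhibitor of mTORC1, had 10.61 and 9.31, and 8.78 and 8.68. The undifferentiated wild-type array was the highest of the 4 for each of them, and the undifferentiated differences were 2.70-fold, 2.31-fold and 2.46-fold. Pck2, the mitochondrial PEP carboxykinase, was 2.38-fold lower, Nupr1, a small stress-induced chromatin protein, 2.05-fold lower, and Vldlr, a lipoprotein receptor and Atf4 target, 2.04-fold lower. Atf4 itself, which is controlled largely through translation, differed by -0.16, with signals of 10.02 and 9.86. Trib3 and Atf3, both feedback regulators of the pathway, differed by -0.58 and -0.47. The heme-sensing kinase gene Eif2ak1 lay on the other side, at 0.45.

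Of 21 genes for amino acid synthesis and one-carbon metabolism 16 were below wild type (76.2%, all genes: 53.1%). At least 2-fold lower were 2 of the 21 (9.52%, all genes: 1.09%), and the list median was log2 -0.41. Aldh18a1, which makes the proline precursor, had signals of 11.48 and 10.41, and 10.15 and 10.21 in retinoic acid. Aldh1l2, the mitochondrial folate dehydrogenase, had 8.08 and 7.02, and 6.96 and 7.09. For both, undifferentiated wild-type cells were high and the other 3 arrays lay close together. Mthfd2, another mitochondrial folate enzyme, differed by -0.82 and Asns, asparagine synthetase, by -0.66, whereas Psat1, of serine synthesis, differed by -0.01. Tyms, thymidylate synthase, was above wild type by 0.64 and Glul, glutamine synthetase, by 0.50. The median of the list in retinoic acid was 0.05.

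Of 26 amino acid transporters 20 were below wild type (76.9%, all genes: 53.1%), and 3 were at least 2-fold lower (11.5%, all genes: 1.09%). The list median was log2 -0.19, and in retinoic acid 0.21. The cystine transporter Slc7a11, with a difference of -1.10 when its probe sets were averaged, had signals of 8.28 and 6.73, and 6.12 and 6.39 in retinoic acid. Slc1a4, a carrier of alanine and serine, had 12.12 and 10.71, and 10.18 and 10.49. Undifferentiated wild-type cells again gave the highest of the 4 signals, and the differences were 2.94-fold and 2.66-fold. Slc7a8, a carrier of large neutral amino acids, was 2.08-fold lower. Slc43a1, another carrier of large neutral amino acids, was above wild type by 0.87. Of 18 cytosolic aminoacyl tRNA synthetases, which charge tRNA, 10 (55.6%) were below wild type, near the 53.1% of all genes, and 0 passed 2-fold; the median was -0.19, and in retinoic acid 0.12. Cars and Sars, for cysteine and serine, differed by -0.88 and -0.83, while Farsa, for phenylalanine, differed by 0.56. Taking the 4 lists as 1, 67 of 90 genes (74.4%, all genes: 53.1%) were below wild type and 11 (12.2%, all genes: 1.09%) at least 2-fold lower, with a median of -0.26, and in retinoic acid the median was 0.14.

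**Figure D3:**
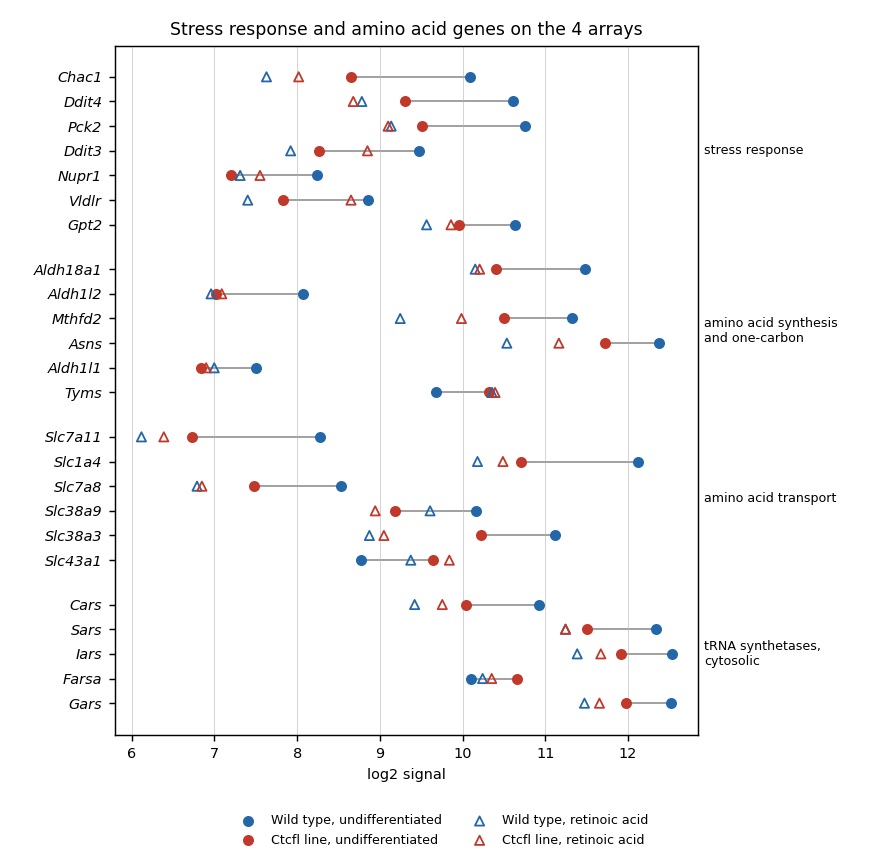
Log2 signals on the 4 arrays for the members of the stress response, amino acid synthesis, amino acid transport and tRNA synthetase lists with the largest undifferentiated differences. Circles are undifferentiated cells, open triangles cells in retinoic acid, blue wild type and red the Ctcfl-expressing clone, 1 array each; a grey line joins the undifferentiated pair. Blue circles lie rightmost for most genes, as for Chac1 (10.09 against 8.65), with Tyms, Slc43a1 and Farsa in the opposite order.

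The 21 genes of endoplasmic reticulum stress and heat shock had a median of log2 0.22, and 15 were above wild type (71.4%, all genes: 46.8%). Hspa5, the chaperone BiP, differed by 0.76 and Hsph1, a heat shock protein, by 0.95, whereas Herpud1, which acts in degradation of endoplasmic reticulum proteins, was 2.12-fold lower. The 14 genes of the mitochondrial unfolded protein response had a median of 0.04. Subunits of the mitochondrial ribosome had a median of 0.16, with 45 of 69 above wild type (65.2%, all genes: 46.8%) and 0 past 2-fold. Mitochondrial tRNA synthetases had a median of 0.05. The 10 genes of the mitochondrial chromosome had a median of 0.07. Antioxidant genes of the glutathione, thioredoxin and Nrf2 list had a median of 0.16 over 26 genes. Gclm and Gclc, the subunits of glutamate-cysteine ligase, differed by 0.81 and 0.45.

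Txnip, which binds thioredoxin and restrains glucose uptake, was far from the rest of that list. Its signal was 11.38 in wild-type cells and 9.17 in the clone, and 10.30 and 10.14 in retinoic acid. Undifferentiated wild-type cells were highest and the undifferentiated clone lowest, and the difference was 4.63-fold. Txnip is a classic target of the glucose-sensing factors Mlxip and Mlxipl. The list for this group had 8 genes, among them Txnip itself and the factor genes Mlxip, Mlxipl and Mlx. Of the 8, 7 were below wild type (87.5%, all genes: 53.1%), with a median of log2 -0.36. The arrestin gene Arrdc4, a neighbour of Txnip in function, was 2.06-fold lower, whereas Arrdc3 was 2.05-fold higher.

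Of 28 genes of glycolysis and hypoxia 20 were below wild type (71.4%, all genes: 53.1%). At least 2-fold lower were 3 of the 28 (10.7%, all genes: 1.09%), and the list median was log2 -0.13. Pfkp, a phosphofructokinase, had signals of 10.80 and 9.50, and 8.75 and 8.40 in retinoic acid. Aldoc, an aldolase, had 11.19 and 10.05, and 9.96 and 9.57. Bnip3, a mitophagy receptor induced by hypoxia, had 9.77 and 8.69, and 8.41 and 8.09. In all 3 genes undifferentiated wild-type cells gave the highest signal, followed by the undifferentiated clone. Vegfa, the angiogenic growth factor, and Ndrg1, another hypoxia-induced gene, differed by -0.94 and -0.99. Genes of cholesterol and fatty acid synthesis had a median of -0.08 over 23 genes and 0 past 2-fold, and their mean had the opposite sign, at 0.028.

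Some signals and factors of the primitive streak were higher in the clone. Of 30 streak and early mesoderm genes 20 were above wild type (66.7%, all genes: 46.8%), 5 of them at least 2-fold (all genes: 0.726%), and 0 were at least 2-fold below; the median was log2 0.14. Among ligands, Wnt3, which starts streak formation, had signals of 7.22 in wild-type cells and 8.97 in the clone, and 7.37 and 7.90 in retinoic acid. Nodal, which patterns the epiblast, had 9.02 and 10.36, and 9.32 and 10.94. For Wnt3 the undifferentiated clone was the highest array, and for Nodal both clone arrays were above both wild-type arrays. Tdgf1, the coreceptor of Nodal, had 9.78 and 11.33, against 6.09 and 6.76 in retinoic acid, and was 2.93-fold higher in the undifferentiated clone. Among transcription factors, Eomes, a T-box factor of mesendoderm, had 8.36 and 9.77, and 7.26 and 8.12, and Cdx2, a homeobox factor of the posterior embryo, 7.09 and 8.37, and 7.17 and 7.11. Cdx4, of the same family and among the genes past 2-fold, was 3.03-fold higher. It was chosen after its value was seen. Mixl1 and Evx1, both homeobox genes of the streak, differed by 0.80 and 0.76.

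Over the 37 genes of the Nodal and TGF-beta pathway the median was log2 0.01, against -0.02 for all genes. Of these, 2 were at least 2-fold higher, Nodal and Tdgf1 (5.41%, all genes: 0.726%), and 0 were at least 2-fold lower. Lefty1, the Nodal antagonist, had signals of 9.47 in wild-type cells and 8.70 in the clone, and 10.17 and 12.87 in retinoic acid. Its undifferentiated difference was thus -0.78 and its retinoic acid difference 2.70. Smad7, an inhibitory Smad, and Tgfb1, a related ligand, were above wild type by 0.88 and 0.81.

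In the Wnt pathway 5 of 54 genes were above wild type by 2-fold or more (9.26%, all genes: 0.726%) and 1 below it (1.85%, all genes: 1.09%), with a median of log2 0.01. Besides Wnt3, the ligand Wnt8a had signals of 8.32 and 9.69, and 7.95 and 8.04 in retinoic acid. Of the receptors, Fzd10 had 7.51 and 8.85, and 7.54 and 8.51. Axin2, a feedback inhibitor and common readout of the pathway, had 8.48 and 9.51, and 9.21 and 9.28. These differences were 2.57-fold, 2.53-fold and 2.05-fold. With the probe sets of Axin2 averaged its difference was 0.67, short of 2-fold. The transcription factor gene Lef1 differed by 0.88. The secreted frizzled-related proteins, which bind Wnt ligands, split: Frzb was 2.36-fold higher and Sfrp1 3.01-fold lower. Sfrp1 had 11.61 in wild-type cells and 10.02 in the clone, and 10.57 and 9.96 in retinoic acid. Porcn, the enzyme that acylates Wnt ligands for secretion, was 2.17-fold higher; it was chosen after its value was seen.

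In the FGF pathway 2 of 33 genes passed 2-fold upwards (6.06%, all genes: 0.726%) and 1 downwards (3.03%, all genes: 1.09%), with a median of log2 0.12. The ligand Fgf5, a marker of the primed epiblast, had signals of 7.78 and 9.61, and 7.56 and 8.08 in retinoic acid. Spry2, a feedback inhibitor of the pathway, had 8.73 and 9.88, and 8.14 and 7.94. In both the undifferentiated clone was the highest array, and the differences were 3.54-fold and 2.22-fold. Etv4, a transcription factor downstream of FGF, and Spry4, another feedback inhibitor, differed by 0.93 and 0.73, whereas Dusp4, a MAP kinase phosphatase, differed by -0.86. The receptor Fgfr2, described above, was the member at least 2-fold lower.

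**Figure D4:**
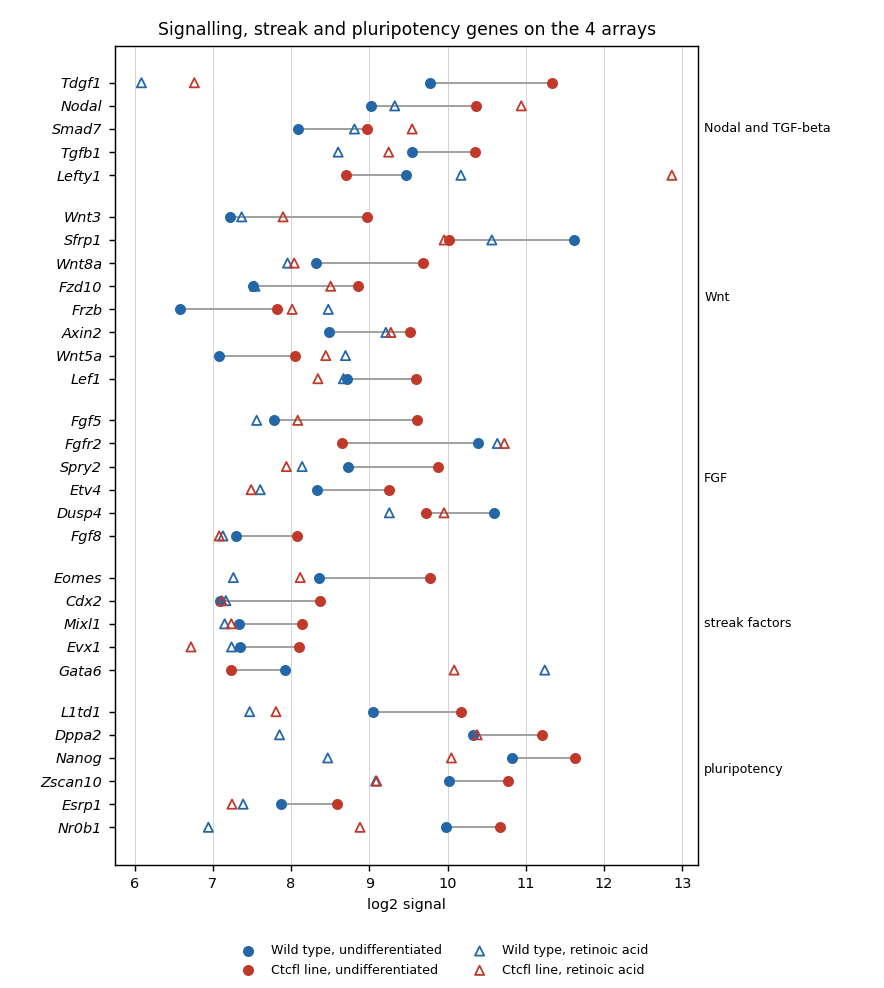
Log2 signals on the 4 arrays for genes of the Nodal, Wnt and FGF pathways, streak factors and pluripotency genes with the largest undifferentiated differences. Circles are undifferentiated cells, open triangles cells in retinoic acid, blue wild type and red the Ctcfl-expressing clone, 1 array each. Red circles lie to the right of blue ones for most genes, as for Wnt3 (8.97 against 7.22), while Sfrp1, Fgfr2, Dusp4, Lefty1 and Gata6 show the reverse.

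Of 44 pluripotency genes 4 passed 2-fold upwards (9.09%, all genes: 0.726%), namely Fgf5, Tdgf1, Nodal and L1td1. None passed it downwards, and the median was log2 0.11. L1td1, an RNA-binding protein of pluripotent cells, had signals of 9.04 and 10.18, and 7.47 and 7.81 in retinoic acid. Of the core factors, Nanog had 10.83 and 11.63, Pou5f1 9.37 and 10.03, and Sox2 12.04 and 11.90. Nanog and Pou5f1 thus lay 0.80 and 0.66 above wild type and Sox2 0.15 below it. Dppa2, a chromatin factor, Nr0b1, a nuclear receptor, and Zscan10, a zinc finger factor of pluripotent cells, differed by 0.89, 0.69 and 0.75.

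Lists of other lineages had medians near 0. The median was log2 -0.08 for 23 neural progenitor and neuron genes, with 1 at least 2-fold higher (Nefl) and 1 lower (Stmn2). It was -0.0043 for 17 endoderm genes and -0.0011 for 17 trophoblast and epithelium genes. In the endoderm list 0 passed 2-fold, and in the trophoblast list 2 were higher (11.8%, all genes: 0.726%). These were Eomes and Cdx2, which the streak list also holds. Fibroblast and blood genes had a median of -0.09 over 13 genes, and Hox genes 0.07 over 36, with 0 past 2-fold in either list. Summed on the linear scale, the neural markers amounted to 4571 in wild-type cells and 2213 in the clone, in which Stmn2 was the main part. Genes of extracellular matrix and adhesion had a median of -0.11 over 36 genes, and Nid1, a basement membrane protein, was the 1 past 2-fold at log2 -1.40. Of 21 interferon response genes 1 was at least 2-fold lower, the signalling factor Stat2 at -1.18, and the median was -0.16.

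Of 30 genes that drive the cell cycle 25 were above wild type (83.3%, all genes: 46.8%), with a median of log2 0.17. At least 2-fold higher was 1 of the 30 (3.33%, all genes: 0.726%), and 0 were lower. Ccnd1, cyclin D1, had signals of 9.52 in wild-type cells and 11.34 in the clone, and 9.42 and 9.82 in retinoic acid. The undifferentiated clone stood above the other 3 arrays, by 3.53-fold over undifferentiated wild-type cells. Myc, the growth-promoting transcription factor, differed by 0.96, Rrm2, a subunit of ribonucleotide reductase, by 0.67 and Mcm5, of the replicative helicase, by 0.53. The list of p53 targets and cell cycle inhibitors had a median of -0.10 over 23 genes. At least 2-fold higher was 1 (4.35%, all genes: 0.726%), and 2 were lower (8.7%, all genes: 1.09%). Cdkn1a, the inhibitor p21, was 2.25-fold higher. Trp53inp1, an autophagy and stress gene, was 2.82-fold lower and Ccng2, a cyclin of quiescent cells, 2.15-fold lower. Cdkn1b, the inhibitor p27, differed by -0.94.

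Partners and paralogs of Ctcfl differed little. Ctcf had signals of 10.61 and 10.87, a difference of log2 0.26, which is within the probe set SD of 0.27. Over the 22 genes of the CTCF and cohesin list the median was 0.12. Ctcfl itself was the 1 gene at least 2-fold higher (4.55%, all genes: 0.726%), and 0 were lower. Rec8, the meiotic cohesin subunit, lay 0.90 below wild type and Cdca5, which stabilises cohesin on chromatin, 0.83 above it. The testis genes known to need Ctcfl had low signals in both lines. Prss50 had 6.67 and 6.63, Stra8 6.35 and 6.42, and Gal3st1 7.61 and 7.38, so their differences of -0.04, 0.07 and -0.23 were no larger than the probe set SD. Of 37 germ line and meiosis genes 0 passed 2-fold, and the median was -0.01. The largest on that list was Tfap2c, a germ cell and trophoblast factor, at 0.85. Zcwpw1, the histone reader of meiotic germ cells described above, was not on the list and was 3.59-fold higher. Of 16 testis antigen genes 2 were at least 2-fold higher (12.5%, all genes: 0.726%), and the median was -0.04. They were Tex16 and Rtl8c. Rtl8c entered that list under an older name, is counted again among genes derived from retrotransposons, and had the highest difference of all genes. The list was chosen with earlier results known, so this share is not separate support.

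Promoters were also searched for AGGGGGC, a core of the Ctcf motif, on both strands. It was present for 12 of 95 higher genes with a sequence (12.6%) and 30 of 161 lower genes (18.6%), against 17.1% of all genes past the filter and 11.9% of the whole promoter table. These letters alone are not a binding site.

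The clustered protocadherins give neurons their surface identity, and Ctcf binds at their promoters. They had a median of log2 0.22, and 16 of 19 were above wild type (84.2%, all genes: 46.8%) with 0 past 2-fold. Of the 19, 16 reached log2 6 on either of the compared arrays, and of these 13 were above wild type, with a median of 0.18. Pcdhb2, at 5.76 in wild-type cells and 6.28 in the clone, reached it only through the clone, so the filter fixed its direction. No filter on wild-type cells alone was run for this list. Signals were low: Pcdhb21, which passed the filter through the retinoic acid arrays, had 4.53 and 5.48, and Pcdhb18 had 6.29 and 6.96. Imprinted genes had a median of -0.06 over 50 genes, whose mean was 0.0054; 1 was at least 2-fold higher (Grb10) and 1 lower. The lower one, Magel2, a regulator of protein trafficking in the Prader-Willi region, had signals of 10.18 and 9.06, and 8.93 and 7.61 in retinoic acid. Other genes derived from retrotransposons did not share the difference of Rtl8c: over 14 genes the median was -0.01, and the next in size was Pnma5 at 0.43. Replication-dependent histone genes had a median of -0.12 over 20 genes, and H2bc9 was the 1 past 2-fold. The 59 ribosomal protein genes had a median of -0.06, which turned to 0.023 when the probe sets of each gene were averaged, and 0 passed 2-fold.

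**Figure D5:**
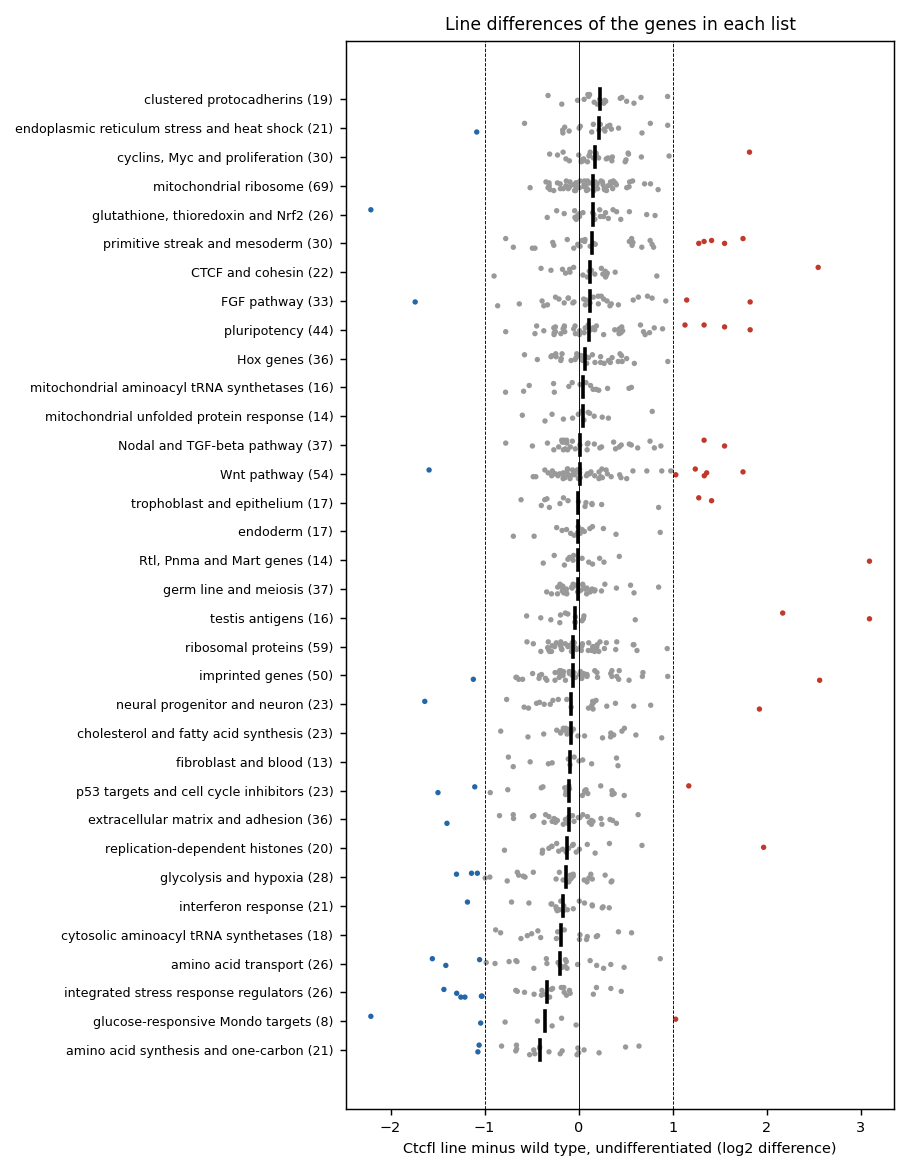
Log2 differences of the Ctcfl-expressing clone from wild type, undifferentiated, for every gene past the filter in each list of at least 8 genes, with the number of genes in brackets. Points are genes (red at least 2-fold higher, blue at least 2-fold lower), black bars are medians and dashed lines mark 2-fold; medians run from log2 0.22 for protocadherins to -0.41 for amino acid synthesis.

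Several microRNA genes inside the imprinted gene Sfmbt2 were higher in the clone. Sfmbt2, a Polycomb-related gene, hosts a large repeated microRNA cluster in 1 of its introns. Of 22 microRNA genes of the cluster with a probe set 16 were past the filter; 6 of these were at least 2-fold higher, 0 lower and 14 above wild type, with a median of log2 0.84. Some passed the filter only through the clone, where they were high. With no filter 7 of 22 were at least 2-fold higher and 18 above wild type, with a median of 0.71, and of the 12 that reached log2 6 in undifferentiated wild-type cells 5 were at least 2-fold higher and 11 above wild type. The other 263 microRNA genes past the filter had a median of -0.01, with 2 at least 2-fold higher and 0 lower. The members named next were chosen after their values were seen. Mir669k had signals of 7.73 in wild-type cells and 9.53 in the clone, and 8.33 and 9.25 in retinoic acid. Mir669g had 7.75 and 9.46, and 8.45 and 8.99, and Mir669i had 7.36 and 9.35, and 7.71 and 8.53. For each of these 3 genes both clone arrays were above both wild-type arrays. Mir669a-3 and Mir669j were 3.26-fold and 2.83-fold higher, and Mir466b-3 differed by 2.55 from a wild-type signal of 3.91, below background. Mir669c, Mir467c and Mir467e, of the same cluster, differed by 0.02, 0.13 and 0.02, and Mir466h by -0.36. In retinoic acid 15 of the 16 were above wild type, 0 at least 2-fold, with a median of 0.56. The host gene had 8.48 and 9.43, a difference of 0.95, and 8.17 and 8.43 in retinoic acid. Copies of the repeat are nearly identical, so members may share signal, and the array reads precursors or host RNA rather than mature microRNAs.

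Genes past 2-fold with a known place lay on every autosome and on the X chromosome. On the X chromosome 16 of 636 genes (2.52%) were at least 2-fold higher, against 0.726% of all genes, and 6 (0.943%) lower. On chromosome 6 the lower genes were 22 of 919 (2.39%), against 1.09% of all genes, and the next largest share was 1.82% on chromosome 14. On chromosome 19 the higher genes were 10 of 596 (1.68%). Over the autosomes and the X chromosome the medians ran from log2 -0.10 on chromosome 6 to 0.06 on the X chromosome. The largest differences mostly belonged to single genes. For 29 of the 30 named genes with the highest or lowest differences a place was known. Of their 58 flanking genes 1 passed 2-fold, where 1.82% of all genes did. The flanking genes had a median size of difference of 0.24, against 0.18 for all genes. Tspan6 lay between Pcdh19 and Srpx2, which differed by 0.22 and 0.04, and Grb10 between Ddc and Cobl, at -0.11 and 0.08. The exception was the gene next to Tex16, a clone-named transcript, which was higher by 2.32. In all, 16 pairs of adjacent genes were both past 2-fold, 15 of them in the same direction, and 3 pairs were microRNA genes of the Sfmbt2 cluster. How many such pairs would be expected was not worked out. The X-linked neighbours Mbnl3, an RNA splicing regulator, and Hs6st2, a heparan sulfate sulfotransferase, were above wild type by 1.45 and 1.46, and Ebp, of sterol synthesis, and Porcn by 1.04 and 1.12.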

How the data were processed

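Biotin-labelled RNA was hybridised to Affymetrix arrays, 1 per condition. The deposited values are on a log2 scale. Per the labels, RMA in Expression Console gave them, and Transcriptome Analysis Console is also listed in the submitters' processing notes. Tool versions and the genome build are not given in the sources used here. The values were used as they stood. Of 41345 probe sets, 1814 carried several gene symbols and 16010 had no entry in the annotation table. Where a gene had several probe sets (1082 genes), the one with the greatest mean of the 4 arrays stood for it, and a gene needed log2 6 on 1 array or more. Differences are clone minus wild type, with no test. Places and promoters come from RefSeq tables on GRCm38.p6. The members, the 35 lists and the naming rule were chosen with earlier results of these data known. The rule named Ctcfl, Ctcf, the 15 highest and 15 lowest genes (no predicted genes, clone names or small RNAs), the 6 largest differences of each list, list members past 2-fold, and neighbours that both passed it. Trib3, Atf3, Atf4, Eif2ak1, Psat1, Tyms, Glul, Lef1, Evx1, Spry4, Pou5f1, Sox2, Nr0b1, Zscan10, Zfp42, Fgf21, Tars, Krt8, Krt18 and the flanking genes fall outside it and were chosen after their values were seen. Counting was tested on simulated data. Python 3.11.15 and pandas 2.3.3 were used. Alternatives were other filters (none, log2 7, undifferentiated arrays alone), quantile normalization, averaging probe sets, thresholds of 3-fold and 1.5-fold, and means in place of medians. Other filters for the Sfmbt2 microRNAs and protocadherins were added after seeing the data.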

Additional observations from a re-analysis of the deposited data

Results flagged for a closer look

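Some gene groups lay on opposite sides of wild type in the 2 states, each measured on 1 array a line, and the difference between the states was not tested. The median line difference of the 26 listed genes of the integrated stress response was -0.34 (log2) when undifferentiated, against 0.18 with retinoic acid. For the 26 amino acid transporters it was -0.19 and 0.21, and for the 18 cytosolic tRNA synthetases -0.19 and 0.12. Single genes that passed 2-fold in both states, in opposite directions, were 4 of 18310. Hhip, which binds Hedgehog ligands, differed by -1.22 in undifferentiated cells and 1.55 in retinoic acid. Pde9a, a phosphodiesterase of cyclic GMP, differed by -1.26 and 1.25, Acss1, a mitochondrial acetyl-CoA synthetase, by -1.19 and 1.15, and Vldlr by -1.03 and 1.25. Outside the gene table, probe sets that the annotation does not list were more often higher in the clone. Of 9974 such probe sets with distinct values past the filter 4.30% were at least 2-fold higher and 0.872% lower, against 0.807% and 1.05% of those with a single gene symbol. In retinoic acid 3.99% were higher and 0.391% lower. What they measure was not tested.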

How the results depend on the processing

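No paired analysis was possible because each group has 1 array, and for the same reason no replicate could be left out. The 133 higher and 200 lower genes became 31 and 18 at a 3-fold threshold and 695 and 933 at 1.5-fold. Under the other filters, quantile normalization and averaged probe sets they numbered between 123 and 136 and between 188 and 211, with 119 to 133 and 188 to 200 of the same genes. Of 1070 recomputed differences of 217 named genes, 1063 moved by less than the probe set SD, but most of them could not move. A filter keeps or drops a gene without changing its difference, and averaging leaves a gene with 1 probe set as it was. Under quantile normalization all 217 stayed within that SD. The deposited RMA values already had array medians between 6.95 and 6.96, so this step could move little and is a weak check. With averaged probe sets, Rpl3 turned to 0.11 and Rps20 to 0.020, Axin2 dropped to 0.67, short of 2-fold, and Slc7a11, Tex16, Ndrg1 and Syp gave -1.10, 2.46, -0.71 and -0.28. Of 210 recomputed list values, 178 moved by less than the probe set SD divided by the square root of the number of genes, though some medians near 0 changed sign within that. With a filter at log2 7 the median was -0.23 for testis genes that need Ctcfl, 0.16 for pluripotency, -0.10 for imprinted genes, -0.11 for trophoblast and -0.20 for fibroblast and blood, and it turned to 0.0079 for neural genes. With the filter on the undifferentiated arrays alone the p53 list gave -0.028, and with quantile normalization the mitochondrial ribosome gave 0.11. With averaged probe sets matrix genes gave -0.057 and trophoblast -0.069, and ribosomal proteins turned to 0.023. Means in place of medians gave 0.25 for testis antigens, -0.44 for the stress response list, -0.31 for amino acid synthesis and -0.31 for transport. They gave -0.025 for mitochondrial tRNA synthetases, 0.12 for the mitochondrial ribosome and 0.14 for endoplasmic reticulum stress. They gave 0.081 for glutathione genes, -0.49 for the list of Mlxip, Mlxipl and their targets, and -0.31 for glycolysis. They gave 0.34 for the streak, 0.16 for Nodal, 0.15 for Wnt, 0.23 for pluripotency, 0.23 for retrotransposon-derived genes, -0.0100 for histones, 0.25 for cyclins and 0.10 for trophoblast. The mean had the opposite sign to the median in 9 lists, which were testis antigens, mitochondrial tRNA synthetases, retrotransposon-derived genes and trophoblast above, cholesterol synthesis at 0.028, imprinted genes at 0.0054, ribosomal proteins at 0.00062, germ line at 0.033 and endoderm at 0.0036. The cause of these shifts was not tested. Signals near log2 6 or below limit what low genes can show.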
